A study of Mus musculus with 15 samples.

Results

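The calcineurin and NFAT genes described here were chosen by name: 3 calcineurin subunits (Ppp3ca, Ppp3cb and Ppp3r1), 3 regulators that bind calcineurin (Rcan1, Rcan2 and Myoz2) and 3 NFAT transcription factors (Nfatc1, Nfatc3 and Nfatc4). All 9 were among the 15258 genes listed in the deposited files, and all 9 were among the 11018 genes with enough reads to be tested. Rcan1 was the only member that passed the test in any comparison. It was higher in both groups with aortic constriction than in sham, while no subunit, no other regulator and no NFAT factor passed.

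Calcineurin is a phosphatase switched on by calcium and calmodulin. It has a catalytic A subunit (here Ppp3ca or Ppp3cb, with Ppp3cc given further below) and a regulatory B subunit that binds calcium (Ppp3r1). It removes phosphates from NFAT factors, which then enter the nucleus and switch on genes together with partners such as GATA4 and MEF2. In heart muscle this route is known as a driver of pathological hypertrophy, and the gene for its feedback inhibitor, Rcan1, is itself an NFAT target and is widely read as a sign of calcineurin activity. The activity of the enzyme and the location of NFAT are set after translation and were not measured by RNA.

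The tissue was left ventricle of male C57BL/6NRj mice, and transcripts were counted at their 3′ ends by BRB-seq, a multiplexed assay with a barcode per sample. There were 3 groups of 5 libraries: TAC NRG (transverse aortic constriction, a band on the aorta against which the ventricle must pump harder, with minipumps that delivered the growth factor neuregulin-1), TAC saline (the same surgery with saline pumps) and sham saline (sham surgery with saline pumps). No sham group received neuregulin-1, so its effect was measured only under constriction. No age, dose or time after surgery is given in the sources used here. Nor is it said whether every library stands for a separate mouse, so p-values measure only how far these samples spread, which may be technical.

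Libraries held 2.02 to 5.62 M reads. TAC NRG 4 and 5 were the shallowest (2.02 and 2.13 M) and stood apart on the second principal component, at 32.4 and 35.9 against -17.5 to 3.30 in the other 13 libraries, so the members' differences in TAC NRG are also given without them. As a check for heart muscle, 6 cardiomyocyte markers were examined, and all 6 were read in every group. Their summed level was 42603 to 48534 CPM in TAC NRG, 41096 to 47185 CPM in TAC saline and 41129.8 to 46413 CPM in sham saline. They mark cardiomyocytes and not a chamber, so the left ventricular label itself was not checked. Levels are in CPM (2 to the power of the deposited value, over 1000, so that the authors' scaling is kept). Folds and differences are log2 differences from limma with their standard error, and a gene passed at a Benjamini-Hochberg adjusted p under 0.05 over all 11018 genes.

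Rcan1 encodes regulator of calcineurin 1 (calcipressin 1), which binds the enzyme and restrains it. Its level was 231, 179, 259, 188 and 116 CPM in TAC NRG libraries 1 to 5, 217, 84.9, 125, 112 and 131 CPM in TAC saline, and 69.0, 60.0, 57.3, 79.2 and 88.7 CPM in sham saline. The TAC NRG libraries all lay above every sham library, and 4 of the 5 TAC saline libraries did, the exception being TAC saline 2. The means were 195 ± 54.6 CPM in TAC NRG, 134 ± 49.5 CPM in TAC saline and 70.8 ± 13.2 CPM in sham saline (SD, n = 5 each), from 179 to 1028 reads per library. The spread within each TAC group was several times that within sham on this scale, and TAC saline 1 was above 3 of the 5 TAC NRG libraries.

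**Figure D1:**
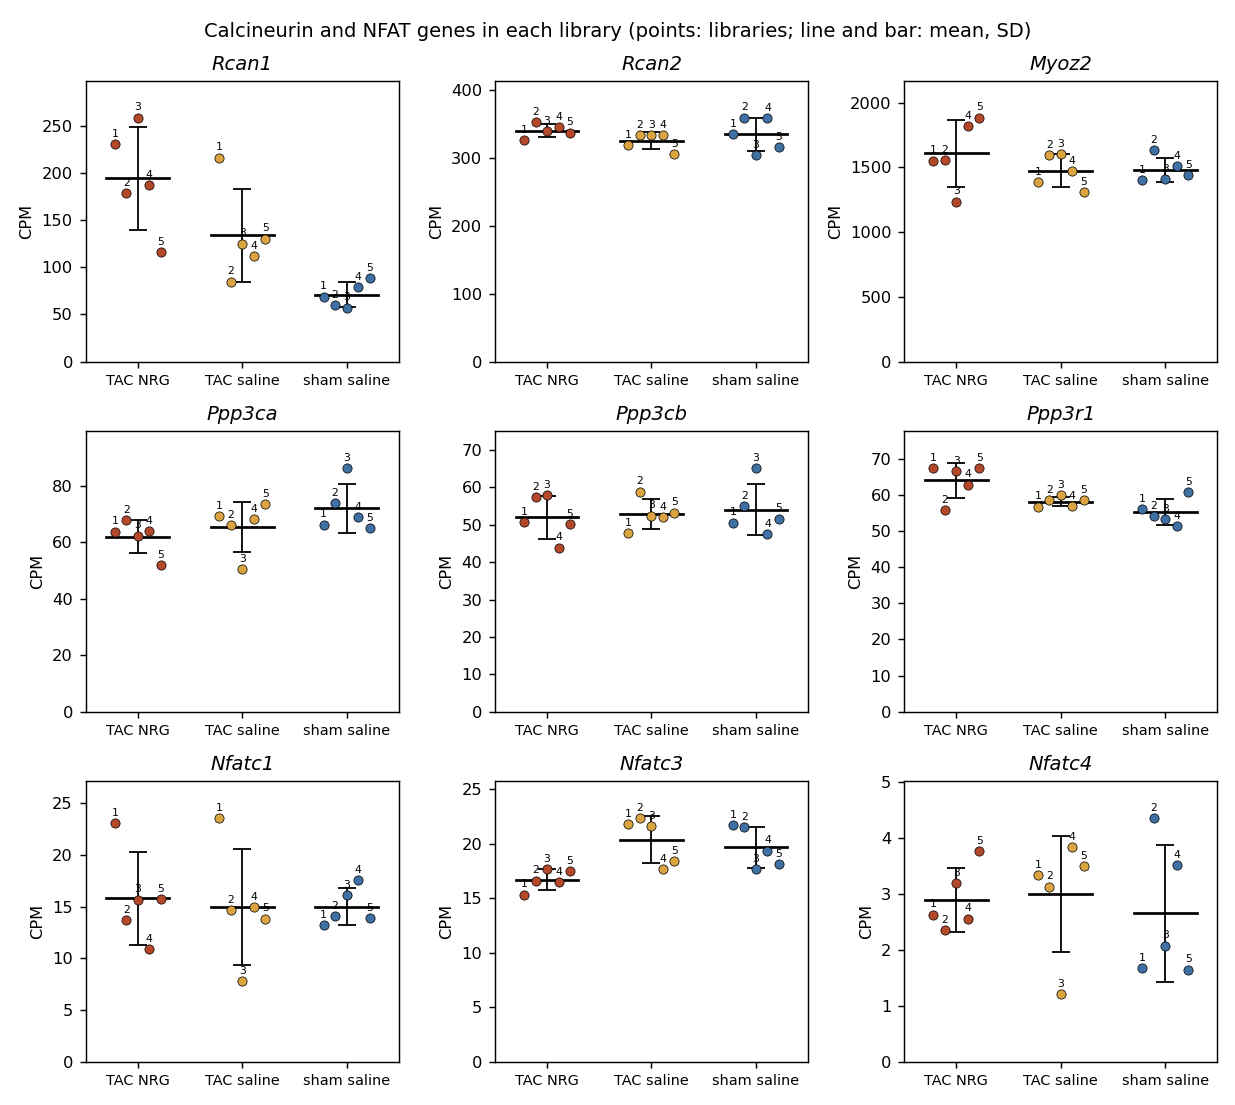
Level in CPM (y axes from 0) of each of the 9 genes in TAC NRG, TAC saline and sham saline; points are libraries with their replicate number, and lines with bars are the mean and SD of 5 libraries. Rcan1 lies at 116 to 259 CPM in TAC NRG, 84.9 to 217 CPM in TAC saline and 57.3 to 88.7 CPM in sham saline, so that TAC NRG is apart from sham saline and TAC saline overlaps with it through library 2; all groups of Rcan2 and of the A subunits overlap.

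With TAC saline set against sham saline, the comparison that asks what pressure overload does, Rcan1 rose 1.83-fold (log2 0.87 ± 0.19, 95% interval 0.47 to 1.27, limma adjusted p = 0.00467). It alone passed, 1 of the 9 members, where 10.7% of all genes tested passed (6.47% higher), so the count itself is near the background. With TAC NRG set against sham saline it rose 2.69-fold (log2 1.43 ± 0.19, interval 1.03 to 1.82, limma adjusted p = 1.5e-05), again as 1 of 9 members against 16.1% of all genes (8.74% higher). By unadjusted p it ranked 79 of 11018 genes in TAC NRG and 336 in TAC saline against sham. Both comparisons use the same sham libraries. Without TAC NRG 4 and 5 its log2 difference from sham was 1.66, and over 28 alternatives it passed in all of them against sham, with log2 values of 0.68 to 1.02 in TAC saline and 1.31 to 1.66 in TAC NRG.

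With TAC NRG set against TAC saline, which asks what neuregulin-1 adds under constriction, no member passed in limma, where 1.3% of all genes did; at an unadjusted p under 0.05 there were 2 members, Rcan1 and Nfatc3, against 15.3% of all genes. Rcan1 differed by log2 0.56 ± 0.19 (1.47-fold, interval 0.16 to 0.96, unadjusted p = 0.00807 and adjusted p = 0.155 in limma). The direction was the same in 28 of 28 alternatives, with adjusted p between 0.0403 and 0.332. Some of the alternatives cannot change the direction, such as those that alter only the spread or leave out a sham library. It passed in 1 of them, without TAC saline 1, at log2 0.75 (limma adjusted p = 0.0403). Without TAC NRG 4 and 5 it was 0.79 (limma adjusted p = 0.0846).

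**Figure D2:**
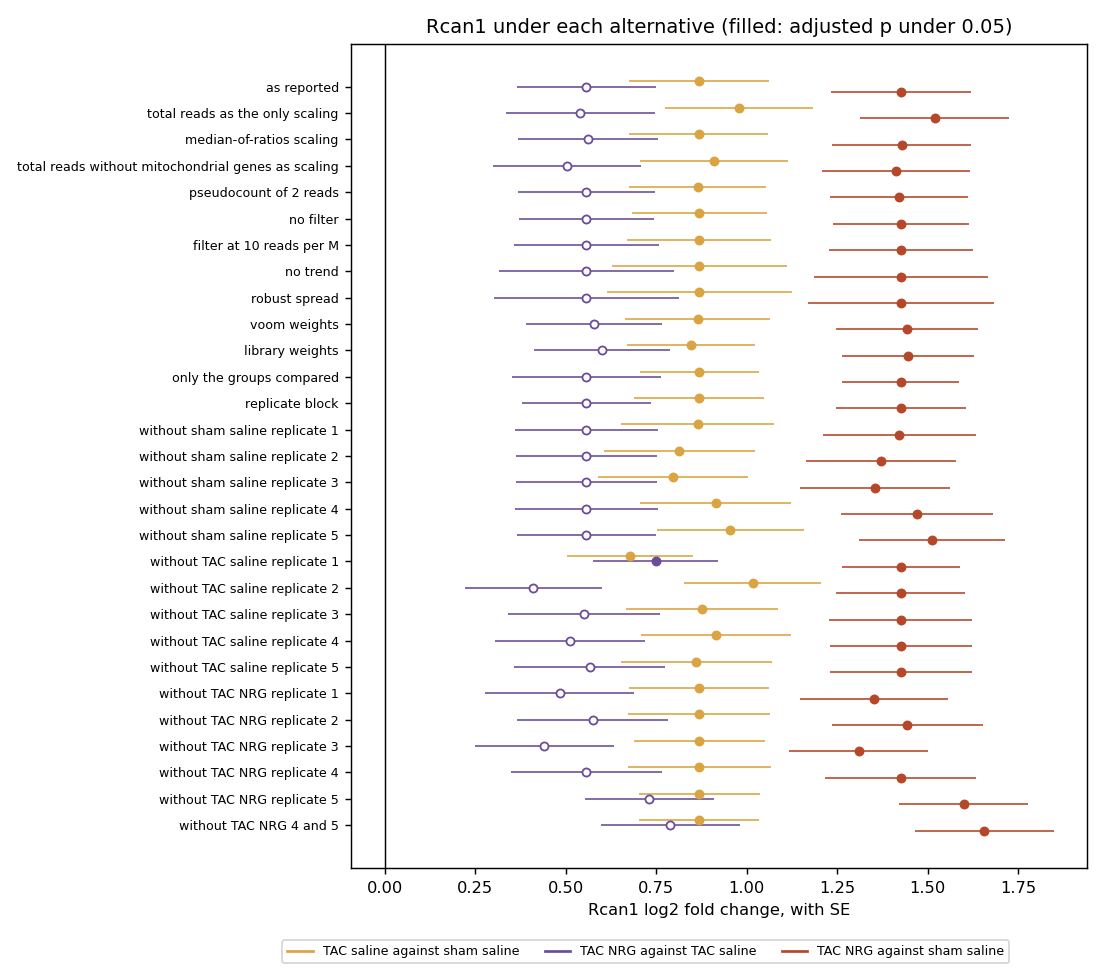
Log2 fold change of Rcan1 (x axis, with standard error) as reported and under each of 28 alternatives (down the y axis) for the 3 comparisons; filled points passed an adjusted p of 0.05. Both comparisons with sham saline pass under all of them, and TAC NRG against TAC saline passes only without TAC saline replicate 1.

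In whole ventricle, a change in the number of cells of a type and a change in RNA per cell cannot be told apart. Beside Rcan1, the summed level of 6 fibroblast markers was 1422 to 2425 CPM in TAC NRG, 1165 to 2001 CPM in TAC saline and 890.0 to 968 CPM in sham saline, with 4 of 6 higher in each TAC group and none at 0. The summed level of 6 macrophage markers was 157 to 277 CPM in TAC NRG, 192 to 298 CPM in TAC saline and 149.9 to 219 CPM in sham saline, with 2 of 6 higher in TAC NRG and 5 of 6 in TAC saline. Of the 6 cardiomyocyte markers, whose sums are given above, Myh6, Tnni3, Ryr2 and Pln were lower and Actc1 higher in TAC NRG than in sham saline, and Tnni3, Ryr2 and Pln were lower and Actc1 higher in TAC saline than in sham saline. Between TAC NRG and TAC saline, Tnnt2 was higher and the endothelial marker Cdh5 lower in TAC NRG. Endothelial markers summed to 843 to 1048 CPM in TAC NRG, 944 to 1184 CPM in TAC saline and 881 to 979 CPM in sham saline, with 0 of 6 past the threshold against sham in limma. Smooth muscle and pericyte markers summed to 482 to 636 CPM in TAC NRG, 482 to 648 CPM in TAC saline and 482 to 605 CPM in sham saline, with 2 of 6 higher and 1 lower in TAC NRG and 1 of 6 higher in TAC saline. The share of reads from mitochondrially encoded genes was 23.7% to 29.0% in TAC NRG, 26.05% to 29.6% in TAC saline and 30.5% to 31.8% in sham saline. Red cell markers summed to 1703 to 3488 CPM in TAC NRG, 980.3 to 1474 CPM in TAC saline and 905 to 2222 CPM in sham saline, and 5 of 5 were higher in TAC NRG than in either other group. Haemoglobin genes held 0.366% and 0.350% of reads in TAC NRG 4 and 5 and 0.189% to 0.222% in TAC NRG 1 to 3. Their share was 0.107% to 0.161% in TAC saline and 0.0888% to 0.221% in sham saline. The part of these measures in the rise of Rcan1 was not tested.

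The RefSeq table gives Rcan1 a pair of starts, 66091 bases apart, for transcripts with different first exons. The internal start is the one known as the calcineurin-responsive form, with NFAT sites in front of it. Of the 5 protein-coding Rcan1 transcripts in the GENCODE vM21 basic set on GRCm38, 4 end within 6 bases of each other, and the spread over all 5 is 557 bases. A read at the 3′ end therefore does not tell the forms apart, and the values above are their sum. The 250 bases before each start are shown because they differ in the core that NFAT binds. They come from the RefSeq table on GRCm38.p6 (the files used GRCm39), minus strand, printed 5′ to 3′ with each GGAAA on either strand (so also TTTCC) in capitals.
Rcan1 distal start, chr16:92466170-92466419: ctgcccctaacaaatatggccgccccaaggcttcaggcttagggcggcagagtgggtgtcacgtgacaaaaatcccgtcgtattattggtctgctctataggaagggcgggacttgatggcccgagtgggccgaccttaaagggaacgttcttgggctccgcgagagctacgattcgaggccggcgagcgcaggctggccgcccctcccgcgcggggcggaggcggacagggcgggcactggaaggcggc
Rcan1 internal start, chr16:92400079-92400328: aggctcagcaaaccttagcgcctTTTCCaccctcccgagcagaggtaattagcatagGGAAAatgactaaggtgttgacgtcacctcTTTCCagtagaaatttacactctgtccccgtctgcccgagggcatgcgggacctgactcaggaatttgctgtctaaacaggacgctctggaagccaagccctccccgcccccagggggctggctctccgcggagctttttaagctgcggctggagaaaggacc

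The distal window held 0 GGAAA cores and the internal window, which lies in an intron of the longer transcripts, held 3. Of 32851 such windows in the table, 55.6% held at least 1 core and 6.39% held at least 3. The internal window also held 1 match to TGANTCA, a looser form of the AP-1 element with any base in the middle. The match does not overlap the cores, and 6.75% of windows held this pattern. Among the other members' windows, 1 of the 3 before Rcan2, which did not pass, also held 1 match to this pattern. The table matched 7 of the 9 members. Among them 3 cores were also found before Ppp3cb and Nfatc4, neither of which passed in any comparison, 2 before Myoz2 and 1 of 3 Rcan2 starts, and 0 or 1 before Ppp3r1 and Nfatc3. A match is a description of these letters and not a bound site.

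Rcan2 encodes the second member of the same inhibitor family. Its level was 327 to 354 CPM in TAC NRG, 306 to 335 CPM in TAC saline and 304 to 359.9 CPM in sham saline, with the groups overlapping. The log2 difference was -0.04 ± 0.07 in TAC saline against sham saline (interval -0.18 to 0.10) and 0.03 ± 0.07 in TAC NRG against sham saline (interval -0.11 to 0.17), with limma adjusted p of 0.795 and 0.842. These intervals, the narrowest of any member in each comparison, run from 11.5% below to 7.22% above sham in TAC saline, so a change of the size seen for Rcan1 lies outside them. TAC NRG against TAC saline gave 0.07 ± 0.07 (limma adjusted p = 0.695).

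Myoz2 encodes calsarcin-1 (myozenin-2), a Z-disc protein of heart and slow muscle that tethers calcineurin at the sarcomere and in mice restrains its signalling. Its level was 1552, 1557, 1235, 1816 and 1884 CPM in TAC NRG, 1386, 1593, 1601, 1471 and 1311 CPM in TAC saline and 1403, 1633, 1412, 1512 and 1439.9 CPM in sham saline, and all groups overlapped. The log2 differences were -0.01 ± 0.09 for TAC saline against sham saline, 0.12 ± 0.09 for TAC NRG against TAC saline and 0.11 ± 0.09 for TAC NRG against sham saline, with limma adjusted p of 0.970, 0.600 and 0.497. TAC NRG 4 and 5, the libraries that stand apart, held its highest levels. Without both, the difference of TAC NRG from TAC saline was -0.03.

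The ratio of members within a library does not depend on how libraries are scaled. The log2 ratio of Rcan1 to the summed A subunits Ppp3ca and Ppp3cb was 1.01, 0.52, 1.11, 0.80 and 0.18 in TAC NRG, 0.89, -0.56, 0.28, -0.10 and 0.04 in TAC saline, and -0.76, -1.10, -1.40, -0.55 and -0.40 in sham saline. Its mean was 1.57 higher in TAC NRG than in sham saline with no overlap, and 0.95 higher in TAC saline than in sham saline with overlap through TAC saline 2. The log2 ratio of Rcan1 to Rcan2 averaged -0.86 ± 0.46 in TAC NRG, -1.35 ± 0.52 in TAC saline and -2.26 ± 0.28 in sham saline (SD, n = 5 each), also without overlap between TAC NRG and sham saline. Ppp3cc, an A subunit outside the members, was not part of the sum. These ratios were not tested.

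**Figure D3:**
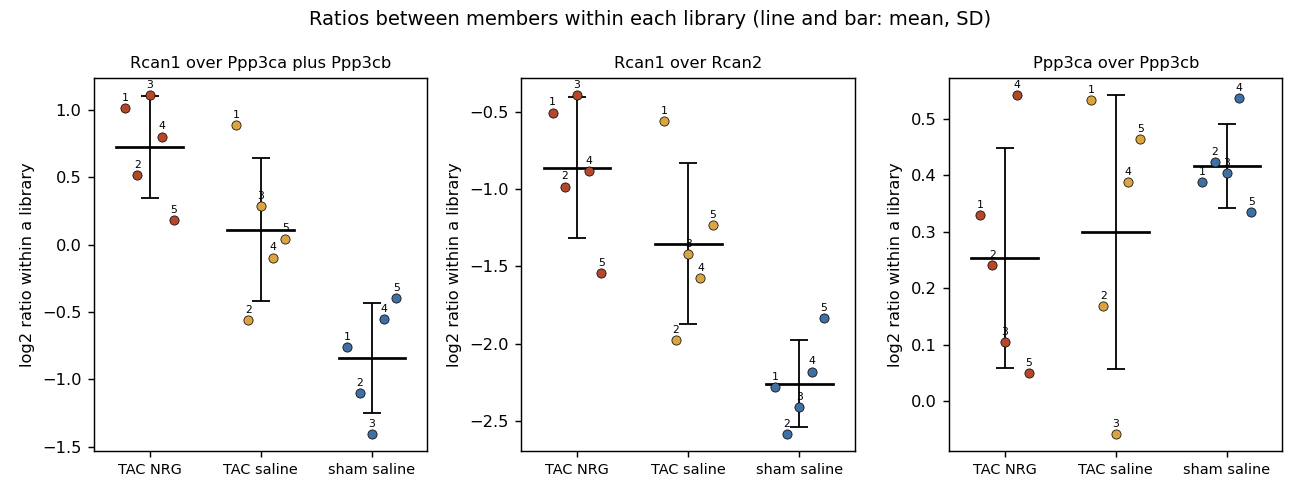
Log2 ratio of CPM within each library (y axes) for Rcan1 over the summed A subunits, Rcan1 over Rcan2, and Ppp3ca over Ppp3cb in TAC NRG, TAC saline and sham saline; points are libraries, lines with bars the mean and SD of 5. Both Rcan1 ratios are highest in TAC NRG, with means of 0.72 in TAC NRG, 0.11 in TAC saline and -0.84 in sham saline for the first, and the ratio of the A subunits overlaps between all groups.

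Ppp3ca and Ppp3cb encode the catalytic A subunits alpha and beta. Ppp3ca was at 63.7, 67.8, 62.3, 63.9 and 51.9 CPM in TAC NRG, 69.3, 66.1, 50.4, 68.1 and 73.5 CPM in TAC saline and 66.2, 73.7, 86.3, 68.8 and 65.1 CPM in sham saline. Its log2 difference was -0.14 ± 0.11 in TAC saline and -0.22 ± 0.11 in TAC NRG against sham saline (limma adjusted p of 0.461 and 0.179), and -0.07 ± 0.11 between the TAC groups (adjusted p = 0.787). The sign was negative in all 28 alternatives of each comparison, some of which cannot change it, and none passed. Ppp3cb, the isoform that mouse knockouts tie to hypertrophy, was at 43.9 to 57.9 CPM in TAC NRG, 47.9 to 58.9 CPM in TAC saline and 47.4 to 65.2 CPM in sham saline, with log2 differences of -0.02 ± 0.10 for TAC saline against sham saline, -0.03 ± 0.10 for TAC NRG against TAC saline and -0.05 ± 0.10 for TAC NRG against sham saline. The log2 ratio of Ppp3ca to Ppp3cb averaged 0.25 ± 0.20 in TAC NRG, 0.30 ± 0.24 in TAC saline and 0.42 ± 0.07 in sham saline (SD, n = 5 each), with the groups overlapping.

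Ppp3r1 encodes the regulatory B subunit, which the A subunits need for activity. It was at 67.6, 55.9, 66.6, 62.9 and 67.4 CPM in TAC NRG, 56.8, 58.6, 60.1, 57.0 and 58.6 CPM in TAC saline and 56.1, 54.2, 53.4, 51.4 and 60.9 CPM in sham saline. In TAC NRG 4 of 5 libraries lay above every sham library, TAC NRG 2 being the exception. The log2 difference of TAC NRG from sham saline was 0.21 ± 0.08 (interval 0.04 to 0.39, limma unadjusted p = 0.0167, adjusted p = 0.0815), and it passed in 2 of 28 alternatives, when scaled by total reads alone (0.31, limma adjusted p = 0.0176) and without TAC NRG 2 (0.26, limma adjusted p = 0.0374). Over the 28 alternatives the limma adjusted p ran from 0.0176 to 0.205. TAC saline differed from sham saline by 0.08 ± 0.08 and TAC NRG from TAC saline by 0.14 ± 0.08, with limma adjusted p of 0.629 and 0.454.

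**Figure D4:**
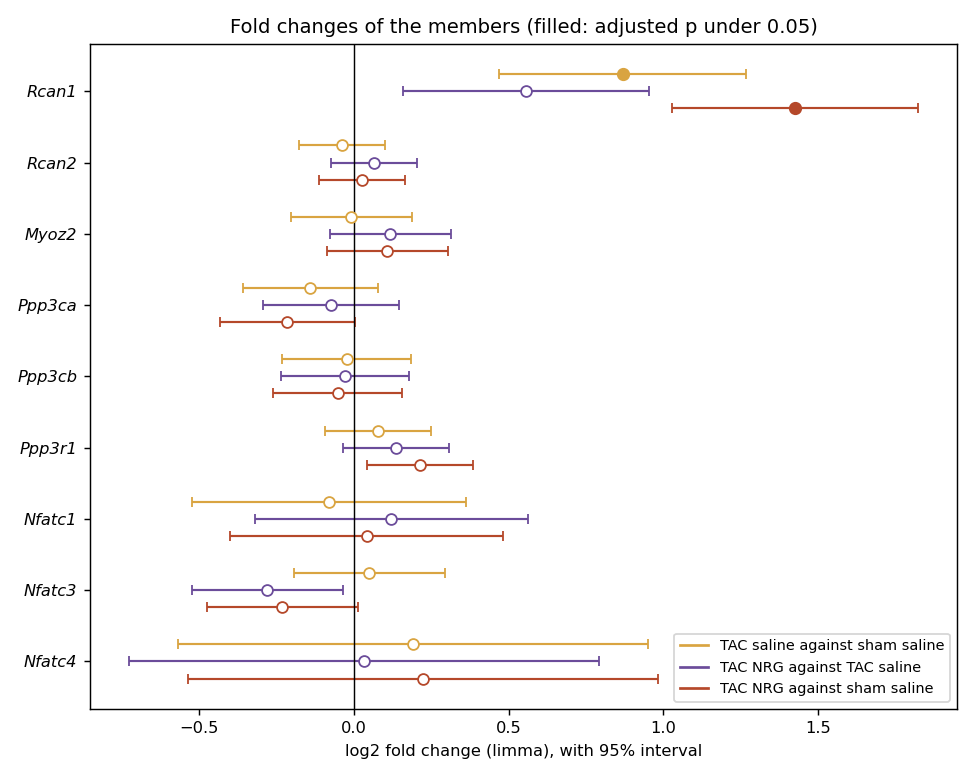
Log2 fold change (x axis) with 95% interval for each of the 9 genes in the 3 comparisons (colours); filled points passed an adjusted p of 0.05. The only filled points are Rcan1 against sham saline, at 0.87 in TAC saline and 1.43 in TAC NRG, and the widest intervals are those of Nfatc4.

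Nfatc1, Nfatc3 and Nfatc4 encode NFAT factors that calcineurin dephosphorylates. Nfatc1 is best known in the heart for its role in endocardium and valves, while in mice Nfatc3 is needed for the full hypertrophic response to calcineurin and Nfatc4 was found as a partner of GATA4 in heart muscle. Nfatc3 was at 15.3, 16.6, 17.7, 16.5 and 17.5 CPM in TAC NRG, 21.8, 22.4, 21.6, 17.7 and 18.4 CPM in TAC saline and 21.7, 21.5, 17.7, 19.4 and 18.1 CPM in sham saline. The TAC NRG libraries lay below every sham library, by a margin of 17.7029 against 17.7042 CPM, and overlapped with TAC saline. That made Nfatc3 and Rcan1 the 2 members whose TAC NRG and sham saline libraries did not overlap, where 11.7% of all genes did not.

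Nfatc3 did not pass the test. Its log2 difference was -0.28 ± 0.12 in TAC NRG against TAC saline (interval -0.53 to -0.04, limma unadjusted p = 0.0259, adjusted p = 0.259) and -0.23 ± 0.12 in TAC NRG against sham saline (limma adjusted p = 0.200). All 28 alternatives kept the negative sign in both comparisons, though some of them cannot change it, with adjusted p no lower than 0.153 and 0.129. TAC saline and sham saline differed by 0.05 ± 0.12.

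Nfatc1 was at 23.1, 13.7, 15.7, 10.9 and 15.7 CPM in TAC NRG, 23.6, 14.6, 7.79, 14.96 and 13.8 CPM in TAC saline and 13.2, 14.1, 16.1, 17.5 and 13.9 CPM in sham saline. The highest library of each TAC group lay above every sham library, and the lowest of each lay below every sham library. Its log2 differences were -0.08, 0.12 and 0.04, each ± 0.21, in TAC saline against sham saline, TAC NRG against TAC saline and TAC NRG against sham saline. Nfatc4 rested on 3 to 16 reads per library and stood at 2.35 to 3.76 CPM in TAC NRG, 1.21 to 3.83 CPM in TAC saline and 1.65 to 4.35 CPM in sham saline. Its interval for TAC saline against sham saline ran from -0.57 to 0.95, so at this depth a change as large as that of Rcan1 was not detectable and is not excluded.

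Apart from Rcan1, the members' log2 differences from sham saline ran from -0.14 to 0.19 in TAC saline and from -0.23 to 0.22 in TAC NRG, with medians of -0.02 and 0.03 beside -0.01 and -0.01 over all genes tested. Without TAC NRG 4 and 5, the difference of TAC NRG from sham saline was 0.02 for Rcan2, -0.04 for Myoz2, -0.15 for Ppp3ca, 0.20 for Ppp3r1, 0.19 for Nfatc1, -0.25 for Nfatc3 and 0.14 for Nfatc4. Ppp3cb turned positive without them, at 0.04 against sham saline and 0.07 against TAC saline. Against TAC saline, the difference of TAC NRG without them was 0.06 for Rcan2, -0.01 for Ppp3ca, 0.12 for Ppp3r1, 0.27 for Nfatc1, -0.30 for Nfatc3 and -0.05 for Nfatc4, and again no member passed (limma adjusted p of 0.0846 or more). Over all libraries, the middle 95% of all genes ran from -0.55 to 0.91 in TAC saline against sham saline. It ran from -0.75 to 0.96 in TAC NRG against sham saline and from -0.68 to 0.49 in TAC NRG against TAC saline.

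Other genes of the pathway were counted over 46 tested genes in 5 lists, without the hypertrophy readouts, which are given further below. In TAC saline against sham saline 4 passed higher and 1 lower (10.9% beside 10.7% of all genes), in TAC NRG against TAC saline 0 passed (beside 1.3%), and in TAC NRG against sham saline 4 passed higher and 4 lower (17.4% beside 16.1%). The median log2 differences were -0.00, -0.04 and -0.08, beside -0.01 over all genes in each comparison. The shares were close to those of all genes, so nothing particular to the pathway is read from them.

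Of 5 tested relatives of the members, 0 passed in any of the 3 comparisons by limma. Nfatc2 and Nfat5 had an unadjusted limma p under 0.05 in TAC NRG against sham saline, and Nfat5 also in TAC saline against sham saline. At least 16.1% of all genes in TAC NRG and 10.7% in TAC saline were under that p, as these passed after adjustment. Nothing particular to the relatives is read from this. Nfat5, the NFAT relative that answers to osmotic stress and not to calcineurin, was at 21.4 ± 3.32 CPM in TAC NRG, 20.1 ± 2.77 CPM in TAC saline and 26.6 ± 5.38 CPM in sham saline (SD, n = 5 each; limma adjusted p = 0.153 and 0.0804 for the TAC groups against sham). Nfatc2 was at 14.4 ± 1.58 CPM in TAC NRG, 13.5 ± 1.59 CPM in TAC saline and 11.8 ± 1.29 CPM in sham saline (limma adjusted p = 0.165 for TAC NRG against sham saline). Ppp3cc, the third A subunit, was at 33.5 ± 3.74 CPM in TAC NRG and 32.7 ± 2.30 CPM in sham saline.

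Of 10 tested genes of calcium and calmodulin supply, Calm2 passed. It encodes calmodulin, which activates calcineurin, and it rose to 202 ± 17.8 CPM in TAC NRG and 196 ± 27.7 CPM in TAC saline, against 149.9 ± 4.52 CPM in sham saline (log2 0.42 ± 0.09 and 0.37 ± 0.09, limma adjusted p = 0.00161 and 0.00769). No TAC library overlapped with sham.

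Of 11 tested calcineurin anchors and modulators, Csrp3, Actn2 and Fkbp1a rose in both TAC groups against sham saline. Csrp3, the muscle LIM protein of the Z-disc that anchors calcineurin there, stood at 2824 ± 451 CPM in TAC NRG, 2904 ± 376 CPM in TAC saline and 2094 ± 129 CPM in sham saline (log2 0.42 ± 0.10 in TAC NRG and 0.46 ± 0.10 in TAC saline against sham, limma adjusted p = 0.00480 and 0.00358). Actn2, the Z-disc actinin to which calsarcin-1 binds, rose by 0.29 ± 0.07 in TAC NRG and 0.24 ± 0.07 in TAC saline. In TAC saline its call was lost without the trend of spread on level and without sham saline 3 or TAC saline 1 (limma adjusted p of 0.0657, 0.0539 and 0.0565). Fkbp1a, the FK506 binding protein through which that drug blocks calcineurin, rose by 0.33 ± 0.09 in TAC NRG and 0.35 ± 0.09 in TAC saline.

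Of 10 tested NFAT kinases and exporters, Mapk9 (the stress kinase JNK2) fell in TAC NRG, to 28.6 ± 3.8 CPM against 37.0 ± 2.44 CPM in sham saline (log2 -0.38 ± 0.12, limma adjusted p = 0.0277). It passed in 21 of 28 alternatives, and without TAC NRG 4 and 5 its value was -0.29 (limma adjusted p = 0.132). The call was also lost when scaled by total reads alone (limma adjusted p = 0.101) and without any 1 of sham saline 1, 2 or 4, or TAC NRG 1 or 4 (0.0508 to 0.0905).

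Of 10 partner factors and kinases, Hdac4, a class II deacetylase that represses MEF2, fell to 23.1 ± 2.19 CPM in TAC NRG and 21.8 ± 3.37 CPM in TAC saline, against 31.5 ± 3.35 CPM in sham saline (log2 -0.45 ± 0.12 and -0.54 ± 0.12, limma adjusted p = 0.0125 and 0.00502). Mef2a and Mef2d, MEF2 factors that act with NFAT, fell in TAC NRG by 0.33 ± 0.09 and 0.29 ± 0.08 against sham saline (limma adjusted p = 0.0143 and 0.0124). Scaled by total reads alone they were -0.24 and -0.20 and did not pass (limma adjusted p = 0.0776 and 0.110), and Mef2a was also lost without sham saline 3 (limma adjusted p = 0.0519). In TAC saline Mef2a was at -0.28 (limma adjusted p = 0.0508) and passed in 12 of 28 alternatives.

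**Figure D5:**
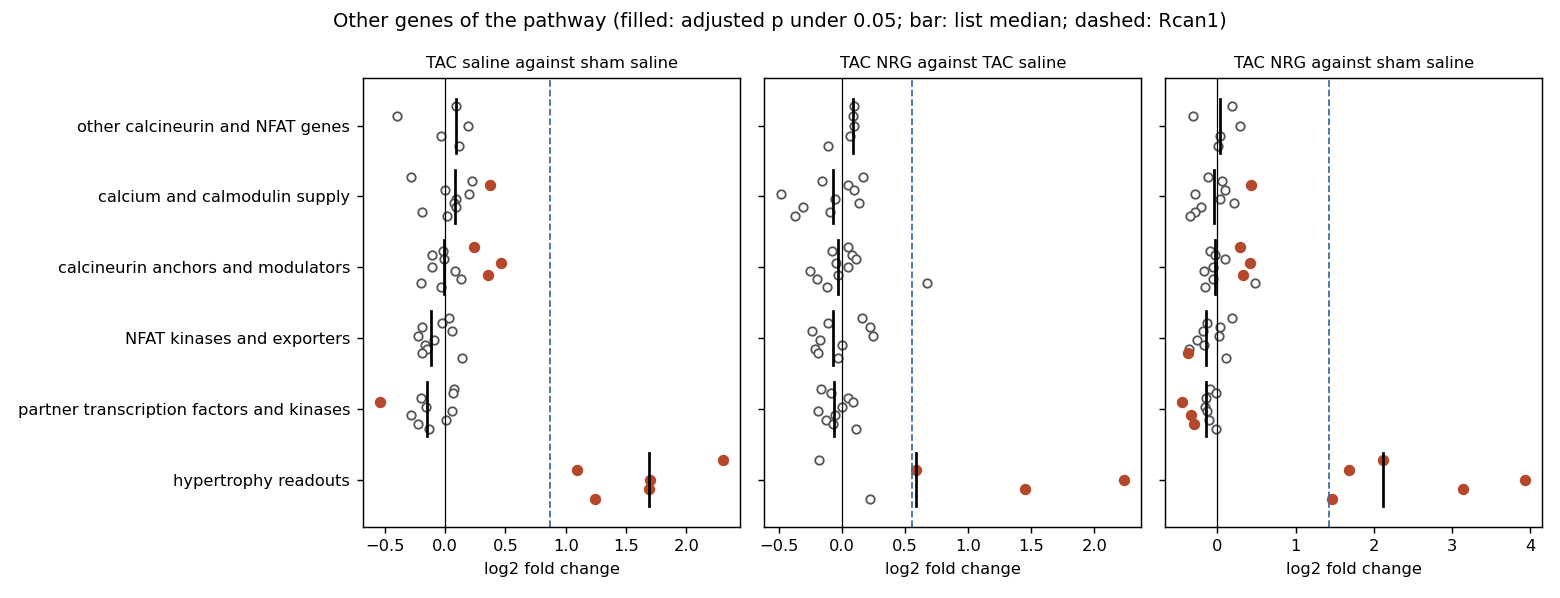
Log2 fold change (x axes) of the tested genes in 6 lists (down the y axis) for the 3 comparisons (panels); filled points passed an adjusted p of 0.05, vertical bars are list medians and the dashed line is Rcan1. The first 5 lists centre near 0 with few filled points, and the hypertrophy readouts reach 3.93 in TAC NRG against sham saline.

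As a check of the state of the ventricle, 5 of 5 genes used as readouts of hypertrophy (Nppa, Nppb, Myh7, Acta1 and Ankrd1) rose in each TAC group against sham saline, with median log2 differences of 1.69 in TAC saline and 2.12 in TAC NRG. In TAC NRG against TAC saline 3 of the 5 passed higher: Myh7 (log2 2.24), Nppa (1.45) and Ankrd1 (0.59). Their limma adjusted p was 2.5e-05, 2.0e-05 and 0.0221. Nppb (0.22) and Acta1 (-0.18) did not pass (limma adjusted p = 0.645 and 0.712). Within TAC NRG, Rcan1 and Myh7, the slow myosin heavy chain, were not ordered alike. Library 5 had the lowest Rcan1 (116 CPM) and the highest Myh7 (2478 CPM, against 576 to 986 CPM in the other 4). TAC NRG 5 is among the shallow libraries that stand apart, and its Myh7 level is flagged further below. Among libraries 1 to 4, Rcan1 was highest in library 3 (259 CPM) and Myh7 in library 2 (986 CPM).

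The genes whose profile over the 15 libraries lay closest to that of Rcan1, by the root mean square difference of centred log2 values, were Tnfrsf12a (0.27), Nkd2 (0.30) and Fxyd5 (0.30), where the median gene was at 0.75. Tnfrsf12a, the receptor for the cytokine TWEAK, was at 175 ± 33.6 CPM in TAC NRG, 155 ± 52.0 CPM in TAC saline and 70.3 ± 19.1 CPM in sham saline (SD, n = 5 each), and Fxyd5, dysadherin, a modulator of the sodium pump, at 39.0 ± 11.4 CPM in TAC NRG, 33.5 ± 8.98 CPM in TAC saline and 16.1 ± 1.52 CPM in sham saline. Nkd2, an antagonist of Wnt signalling, stood at only 5.23 ± 2.34 CPM in TAC NRG, 3.47 ± 0.92 CPM in TAC saline and 1.52 ± 0.34 CPM in sham saline. All 3 passed in limma against sham in both TAC groups and none passed between the TAC groups, but they were picked for their likeness to Rcan1 over the same libraries, so this is a description and supports nothing.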

How the data were processed

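The authors deposited log2 values. The spacing of low values shows that 0.5 was added to each gene's reads and that each library was then scaled by its own factor. The submitters' processing notes name the build GRCm39; no source used here names an aligner or counter. Undoing the factor gave reads within 0.05 of a whole number for 98.9% to 99.5% of values in a library, and for all values under 1000 reads. Libraries of a group were not duplicates (chi-square per degree of freedom of 2.16 to 10.9).

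All 15 libraries entered a single limma model (version 3.58.1, R 4.3.3) of group on log2 value, in which the prior spread followed a gene's level, and tests were two-sided. A gene was tested if 5 or more libraries reached 2.95 reads per M and its reads summed to 15 or more. In 5 simulations of TAC saline against sham saline, 200 of 11018 genes were changed. Genes varied independently, each with the same spread in all groups. The model found 43.4% of the 1.5-fold changes, 80.4% of the 2-fold and 98.2% of the 4-fold, and 4.69% of its calls were false. In the data 1180 genes passed in this comparison, and the spread of Rcan1 differed between groups, so these shares need not hold there.

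The members and lists were chosen with earlier results of these data known. All 9 members are named, and of each pathway list the genes past the threshold, and the 3 genes most like Rcan1. Names beyond this were chosen after their values were seen. Lymphocyte (2 of 5 listed, 0.442 to 2.39 CPM in sum) and skeletal muscle markers (3 of 5 listed; Ckm, also a heart gene, carried the sum of 1436 to 2826 CPM) were not used further. The 28 alternatives covered scaling, offset, filter, spread, weights, groups fitted, replicate numbers and libraries left out. Python 3.11.15, pandas 2.3.3, numpy 2.4.6 and matplotlib 3.10.9 were used.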

Additional observations from a re-analysis of the deposited data

Results flagged for a closer look

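Over 22 genes and 3 groups, 66 sets of 5 libraries were checked for a library far from the others, a gap above 0.71 of the group's range; chance flags about 1 in 20. There were 3. Nfatc4 in TAC saline 3 was at 1.21 CPM (3 reads), against 3.12 to 3.83 CPM in the other 4 (gap 0.730 of the range). Csrp3 in sham saline 3 was at 1867 CPM, against 2114 to 2172 CPM in the other 4 (gap 0.808). Myh7 in TAC NRG 5 was at 2478 CPM, against 576 to 986 CPM in the other 4 (gap 0.785).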

How the results depend on the processing

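Of 753 values of the 9 members under the alternatives, 3 changed side of the threshold and 0 reversed as a called value: Rcan1 in TAC NRG against TAC saline without TAC saline 1, and Ppp3r1 in TAC NRG against sham saline when scaled by total reads alone or without TAC NRG 2. Members called were therefore 0 to 1 for TAC NRG against TAC saline and 1 to 2 for TAC NRG against sham saline when single libraries were left out, and 2 for TAC NRG against sham saline when scaled by total reads alone, which moved the median log2 difference of all genes to 0.10 in TAC saline and 0.08 in TAC NRG against sham. Nfatc4 had too few reads for the filter of 10 reads per M. Of 1092 values of named pathway genes, 22 calls were lost, 12 gained and 0 reversed; Ankrd1 in TAC NRG against TAC saline kept its call in 19 of 28. Pathway genes called for TAC NRG against TAC saline were 0 to 1 without single libraries, and 1 with mitochondrial genes left out of the scaling.

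All genes called for TAC saline against sham saline were 1180, 726 without the trend and 636 to 1495 without single libraries (708 without TAC saline 1, 636 without TAC saline 5). For TAC NRG against TAC saline they were 143, 40 without the trend, 93 with library weights, 77 when only these groups were fitted, 39 without TAC NRG 4 and 5, and 58 to 229 without single libraries (78, 92 and 93 without TAC saline 1, 4 and 5; 229, 58 and 77 without TAC NRG 2, 4 and 5). The causes were not tested. With the replicate number as a block 1049 genes and 1 member were called for TAC saline against sham saline, 111 and 0 for TAC NRG against TAC saline, and 1645 and 1 for TAC NRG against sham saline, and no named gene changed its call. Deviations of same-numbered libraries correlated at -0.25 to 0.08. The labels do not say what the number stands for, and these correlations do not show what same-numbered samples share. Depth limits Nfatc4 most.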

Other observations

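Among pathway genes other than the hypertrophy readouts, a pair outside the naming rule stood nearest to the threshold between the TAC groups. This pair was chosen after its values were seen. Sdc4, the transmembrane proteoglycan syndecan-4, was at 16.5 ± 3.33 CPM in TAC NRG and 10.4 ± 2.66 CPM in TAC saline (SD, n = 5 each; log2 0.68 ± 0.19, limma adjusted p = 0.0718), with 11.9 ± 2.51 CPM in sham saline. Fhl2, a LIM protein of the sarcomere, was at 1576 ± 98.8 CPM in TAC NRG and 1877 ± 94.6 CPM in TAC saline with no overlap (log2 -0.25 ± 0.07, limma adjusted p = 0.0802), with 1774 ± 129 CPM in sham saline.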
